A study of Mus musculus with 10 samples.

Results

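Skin lying over an unfilled silicone expander carried an inflammatory and matrix gene pattern, with higher signals than skin without surgery at both hair stages examined. Targets of hedgehog signalling stood below both stages. Of 11 pigment cell genes 5 did as well, but the mean of that list was close to telogen and differed mainly from anagen. Macrophage genes showed the inflammatory pattern most completely, with 21 of 23 tested members above both no-surgery arrays in all 4 implanted arrays. Cell cycle and most muscle genes lay apart from 1 hair stage alone or between the stages. Most hair shaft genes lay below anagen alone, but without the array of day 14, 17 of 23 lay below both stages. In a linear model over all arrays no single gene passed the threshold after adjustment. In that model the difference between the single telogen and anagen arrays counts as spread. The result also depended on day 14, as the same model without that array called 106 genes higher and 6 lower.

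The comparison used the 4 arrays of non-expanded skin and the 2 arrays of skin without implantation, which are 6 of the 10 arrays of the series, chosen by their labels. All mice were C57BL/6J and were 9 weeks old when the experiment began. In the non-expanded mice an expander, a silicone implant placed under the back skin, was left without any injection of PBS (phosphate-buffered saline). Their skin was taken from above the implant, with 1 array at each of days 0, 7, 14 and 21. The labels count these days from full injection, which only the expanded mice received. The no-surgery mice were wild type and gave 1 array in telogen, when hair follicles rest, and 1 array in anagen, when they grow. No group had surgery without an implant, so the operation and the implant cannot be told apart. The 4 arrays of expanded skin entered the fits only to help estimate the spread. The labels leave unsaid if the RNA of an array was of 1 animal or of several, so p-values measure only the spread between these arrays, and the arrays of the implanted arm lie at different days.

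RNA came from whole skin, and the arrays reported 1 signal for each probe set on a log2 scale, on which a difference of 1 is a factor of 2. Array medians lay between 6.27 and 6.45, and 13653 genes were tested. The tissue label was borne out by its markers: Krt10, the keratin of differentiated epidermis, lay between 15.53 and 18.79 on the 6 arrays. Skeletal muscle of the back was in the samples as well, and Acta1, the actin of skeletal muscle, lay between 16.17 and 19.16. In whole tissue fewer cells of a type and less RNA per cell cannot be told apart. Over the probe sets of an array, which do not count as replicates, the non-expanded arrays correlated with telogen at 0.936 to 0.966 and with anagen at 0.891 to 0.906, and telogen and anagen correlated at 0.891. For 8852 genes (64.8%) the mean of the non-expanded arrays was nearer to telogen than to anagen.

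An implant under the skin is met first by neutrophils and then by macrophages, which take up debris, release chemokines and complement proteins and may fuse into giant cells on its surface. Fibroblasts then lay down and cross-link collagen, and a fibrous capsule forms around the material. Hair follicles in the same skin pass on their own schedule through rest and growth. In growth, hedgehog and Wnt signals drive the follicle, matrix cells divide, the hair shaft is built from keratins and keratin-associated proteins, and melanocytes load it with pigment. A gene of the hair programme can therefore differ between samples through the stage of the follicles alone, which is why each stage was used as a separate reference.

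Promoter sequence of 6 genes that stood above both no-surgery arrays is shown because the letters in capitals match motifs of factors known from myeloid and interferon-responsive genes. PU.1 is the transcription factor that specifies myeloid cells, and its motif was searched as GAGGAAGT. The interferon-stimulated response element was searched as GAAANNGAAA, in which N is any base. Both strands were searched, so a match can read as the reverse complement. The stretches are the 250 bases before the transcription start, 5′ to 3′ on the strand of the gene, from RefSeq on GRCm38.p6. The first 3 hold the PU.1 motif: C1qc, a chain of the complement starter C1q, at chr4:136892915-136893164 (minus strand), Mmp12, macrophage elastase, at chr9:7344147-7344396 (plus strand), and Pirb, an inhibitory receptor of myeloid cells chosen after its values were seen, at chr7:3720383-3720632 (minus strand). The other 3 hold the interferon element: Bst2, the antiviral tetherin, at chr8:71537473-71537722 (minus strand), with 2 overlapping matches, Ncf1, a subunit of the phagocyte NADPH oxidase, at chr5:134229626-134229875 (minus strand), and Cybb, the catalytic subunit of that oxidase, at chrX:9469325-9469574 (minus strand), with 3 matches.
C1qc: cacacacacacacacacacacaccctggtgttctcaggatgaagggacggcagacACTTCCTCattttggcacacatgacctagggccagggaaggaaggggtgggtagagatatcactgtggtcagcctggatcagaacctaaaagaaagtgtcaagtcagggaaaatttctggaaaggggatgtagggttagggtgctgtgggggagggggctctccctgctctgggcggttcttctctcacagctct
Mmp12: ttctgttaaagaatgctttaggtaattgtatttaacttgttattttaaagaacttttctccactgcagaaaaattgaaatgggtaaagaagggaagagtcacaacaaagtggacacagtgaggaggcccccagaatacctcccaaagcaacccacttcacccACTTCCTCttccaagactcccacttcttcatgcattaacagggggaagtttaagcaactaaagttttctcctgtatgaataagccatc
Pirb: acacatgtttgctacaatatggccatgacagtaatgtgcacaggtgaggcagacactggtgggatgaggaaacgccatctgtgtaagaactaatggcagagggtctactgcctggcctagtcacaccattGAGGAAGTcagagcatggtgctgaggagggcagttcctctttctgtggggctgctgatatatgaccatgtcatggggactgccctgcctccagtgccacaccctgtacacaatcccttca
Bst2: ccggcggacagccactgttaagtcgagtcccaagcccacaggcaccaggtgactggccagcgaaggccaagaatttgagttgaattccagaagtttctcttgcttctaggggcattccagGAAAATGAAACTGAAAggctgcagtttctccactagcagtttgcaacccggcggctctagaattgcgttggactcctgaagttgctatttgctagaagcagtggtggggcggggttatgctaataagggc
Ncf1: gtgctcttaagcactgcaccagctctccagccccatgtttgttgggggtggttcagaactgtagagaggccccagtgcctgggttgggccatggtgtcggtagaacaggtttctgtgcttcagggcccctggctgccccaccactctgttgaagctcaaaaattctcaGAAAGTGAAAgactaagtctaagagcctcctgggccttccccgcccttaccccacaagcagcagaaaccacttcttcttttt
Cybb: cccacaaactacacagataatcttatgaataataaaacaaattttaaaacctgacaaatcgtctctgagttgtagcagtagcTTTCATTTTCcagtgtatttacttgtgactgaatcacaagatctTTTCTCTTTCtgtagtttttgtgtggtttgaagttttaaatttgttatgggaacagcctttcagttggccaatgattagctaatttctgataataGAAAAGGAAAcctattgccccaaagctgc
None of these matches overlaps a match to the other motif.

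The share of promoters with each motif was counted in windows of 300 bases, which add the 50 bases after the start. Among the genes above both no-surgery arrays by at least 1 log2, 183 of 237 had a promoter in the RefSeq table, and 21 of these (11.5%) held the PU.1 motif. The same motif was in 432 of 11001 tested genes with a promoter (3.93%) and in 997 of all 27025 promoters (3.69%). The interferon element was in 16 of the 183 (8.74%), in 413 of the tested genes (3.75%) and in 1079 of all promoters (3.99%). Of the interferon response list 6 of 10 members with a promoter held it, namely Isg15, Ifit1, Ifit3, Bst2, Gbp2 and Gbp3. Among the genes below both arrays by at least 1 log2, 1 of 23 held the PU.1 motif and 0 held the interferon element. These are counts of letters in fixed windows and were not tested; a match does not show that a factor binds.

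The first question was which genes lay outside the range of both no-surgery arrays in all 4 implanted arrays. Of the 13653 genes tested, 1567 (11.5%) were above both and 985 (7.21%) were below both. With 4 arrays against 2 there are 15 ways to assign the labels. Labels without meaning would place a gene in each class with a chance of 0.0667, which the share below both barely exceeds. The gap between the nearest arrays of the groups was small for most of them, with a median of 0.32 log2 above and -0.2 log2 below. A gap of at least 1 log2 was found for 237 genes above (1.74%) and 33 genes below (0.242%). Postn, which encodes the matrix protein periostin, is an example just inside the class, with its lowest non-expanded value at 15.59 against 15.57 in telogen. Rgs5, a marker of pericytes chosen here after its values were seen, is just outside, with 10.04 on day 0 against 10.06 in anagen.

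The limma fit of all 10 arrays in 3 arms (non-expanded, expanded, no surgery) called 0 genes higher (0.0%) and 0 genes lower (0.0%) at an adjusted p of 0.05. The lowest adjusted p was 0.0646, and 190 genes were under 0.1. At an unadjusted p of 0.05 there were 1286 genes higher (9.42%) and 858 lower (6.28%). In that fit the difference between telogen and anagen counts as spread. When the stages were entered as separate groups and non-expanded skin was set against their mean, 477 genes rose (3.49%) and 374 fell (2.74%). That fit has no replicate of either stage and takes its spread from the implanted arrays alone, so calls from it are named as such below. Without the array of day 14 the fit of 3 arms called 106 genes higher and 6 lower. With 4 arrays against 2 there are 15 labellings, so an exact permutation test of a single gene could not go below 0.0667, or 0.133 where a one-sided p is doubled.

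Against telogen alone 0 genes were called higher (0.0%) and 0 lower (0.0%), with a lowest adjusted p of 0.11 and 1887 genes at an unadjusted p of 0.05. Against anagen alone 1152 genes were called higher (8.44%) and 1493 lower (10.9%). Each stage had 1 array, assumed in these limma fits to vary like the other groups. By range, 382 genes were higher than telogen only (2.8%) and 271 lower (1.98%), with a mean difference of at least 1 log2 and anagen inside the range of the implanted arrays. Against anagen only, 1070 genes were higher (7.84%) and 1311 lower (9.6%). Another 2300 genes (16.8%) had all 4 implanted arrays between the stages.

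**Figure D1:**
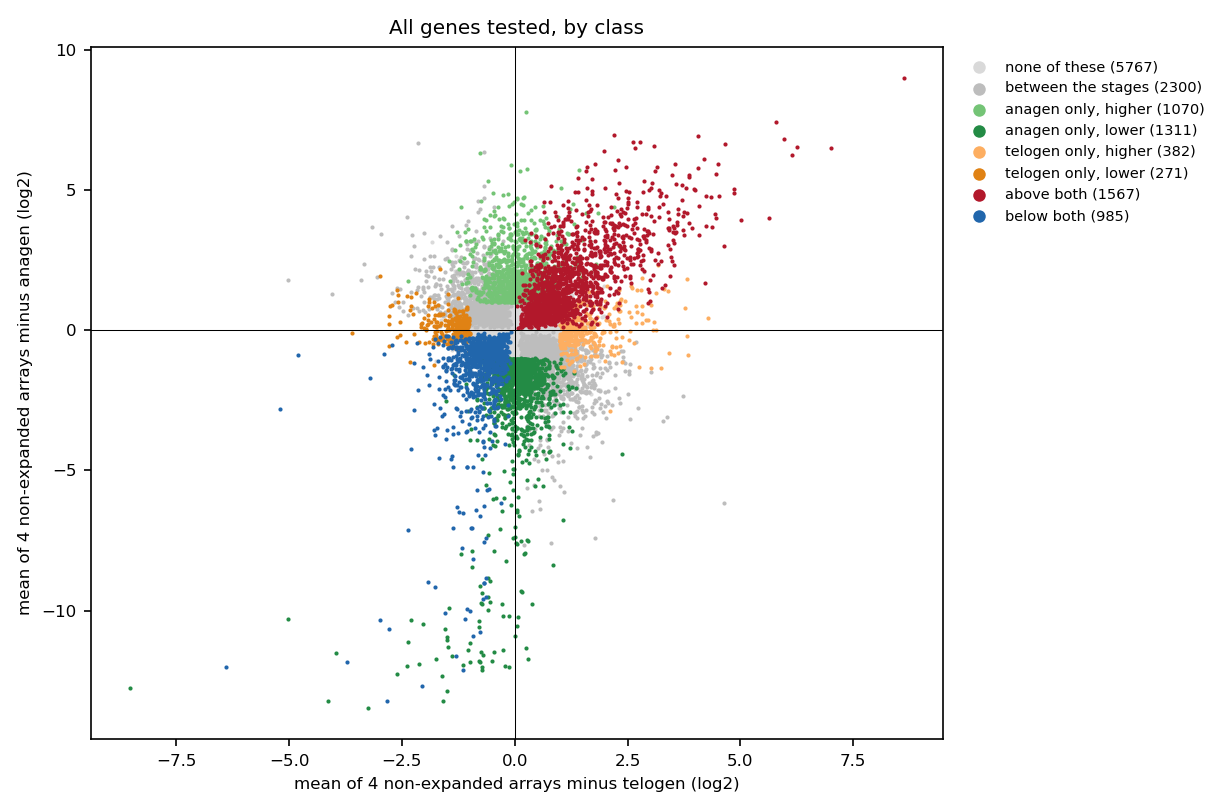
Each point is 1 of the 13653 genes tested, placed by the mean of the 4 non-expanded arrays minus telogen (x axis, log2) and minus anagen (y axis, log2), with colours for the classes and their gene numbers. The 1567 genes above both arrays fill the upper right, the 985 below both the lower left, and the longest tail points down, where 1311 genes lay below anagen only.

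Macrophage genes were the clearest group above both stages. Of 25 listed members 23 were tested, and 21 of them lay above both no-surgery arrays in all 4 implanted arrays, against 11.5% of all genes. The median difference from the mean of both stages was 3.84 log2, against 0.01 over all genes, and it was 3.02 from telogen and 4.39 from anagen. In the fit of 3 arms 22 of the 23 were higher at an unadjusted limma p of 0.05, against 9.42% of all genes. The mean level of the list was 11.84, 12.99, 10.69 and 12.67 on days 0, 7, 14 and 21, against 9.16 in telogen and 7.78 in anagen. Day 14 was the lowest of the implanted arrays and still stood above both stages.

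Lyz2, the lysozyme of macrophages and other myeloid cells, had signals of 16.68, 17.96, 15.99 and 17.19 on days 0 to 21, 13.81 in telogen and 11.14 in anagen. All 4 implanted arrays were above both stages, and the difference was 4.48 ± 0.75 log2 (SE), with a limma adjusted p of 0.0731 and a range of 0.00124 to 0.226 over the alternatives. Cybb lay at 13.13, 15.81, 12.24 and 14.27 against 9.4 in telogen and 8.28 in anagen, so that the nearest arrays were 2.85 apart. Its partner subunit Ncf1 was at 11.32, 13.33, 9.65 and 12.93 against 6.95 and 6.76. Both oxidase subunits had the same order of days, highest on day 7 and lowest on day 14. Itgam, the integrin chain CD11b of myeloid cells, was at 11.72, 13.53, 10.41 and 13.1 against 7.67 and 7.39. Cd14, the co-receptor for bacterial lipopolysaccharide, was 4.18 ± 0.62 log2 above the mean of both stages (adjusted p 0.0646). Adgre1, a surface receptor of tissue macrophages, had a smaller difference of 2.38 ± 0.59 and a gap of 0.39. The Fc receptor Fcgr1 differed by 3.36 ± 0.65, and Pld4, named as a member of the phospholipase D family, by 3.79 ± 0.63.

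Wfdc17, a small secreted protein of activated macrophages, was among the genes with the widest gap. Its signals were 15.6, 14.99, 14.23 and 15.62 on days 0 to 21, 11.05 in telogen and 8.2 in anagen, a difference of 5.48 ± 0.85 (adjusted p 0.0646, range over the alternatives 0.0013 to 0.226). Pirb was at 11.6, 12.47, 10.36 and 12.7 against 8.21 and 6.55. Mmp12, an elastase that macrophages secrete, showed an order of its own. It was at 15.81 on day 0, 14.14 on day 7, 11.42 on day 14 and 10.19 on day 21, against 7.1 in telogen and 5.48 in anagen. The day 21 array was thus the lowest and still 3.09 above telogen. Its difference of 6.6 ± 1.62 had an adjusted p of 0.106.

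Markers of alternatively activated macrophages, which are linked to repair, were above both stages for 9 of 15 tested members, with a median difference of 2.3 log2. Mrc1, the mannose receptor, was at 16.59, 17.58, 15.61 and 17.65 against 14.42 in telogen and 12.68 in anagen. F13a1, the A chain of coagulation factor XIII, differed by 3.23 ± 0.55, Folr2, a folate receptor of tissue macrophages, by 2.99 ± 0.62, and Stab1, a scavenger receptor, by 1.86 ± 0.41. All 4 had gaps of at least 1.19. The list for giant cells and lysosomes was less uniform, with 5 of 20 tested members above both stages (11.5% of all genes were) and a median of 0.74. Plin2, a protein of lipid droplets, was closely grouped at 13, 12.71, 12.96 and 12.86 against 11.96 and 11.52. Trem2, a lipid receptor of macrophages, was highest on day 7 at 10.08 and lay between 6.52 and 7.6 on the other days, against 5.74 and 5.61.

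Neutrophil genes stood above both stages for 11 of 18 tested members, against 11.5% of all genes. Their median was 2.05 log2, but they varied far more between days. The list mean was 10.19 on day 0, 8.34 on day 7, 6.87 on day 14 and 7.83 on day 21, against 5.7 in telogen and 5.78 in anagen. In the fit of 3 arms only 5 of the 18 were higher at an unadjusted limma p of 0.05, against 9.42% of all genes. Clec4d, a C-type lectin of myeloid cells, was at 10.54, 12.65, 7.42 and 10.42 against 4.11 and 4.02. Both no-surgery values are below the median of the background probe sets, 5.46. Retnlg, a resistin-like protein of neutrophils, was at 12.9 on day 0 and at 9.11, 8.3 and 7.21 on the later days, against 5.14 and 4.61. Csf3r, the receptor for the neutrophil growth factor G-CSF, was highest on day 7 at 9.33 and lowest on day 14 at 6.04, against 5.15 and 4.41. The no-surgery values of Retnlg and Csf3r were below the background median as well. The members thus did not share 1 order of days.

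**Figure D2:**
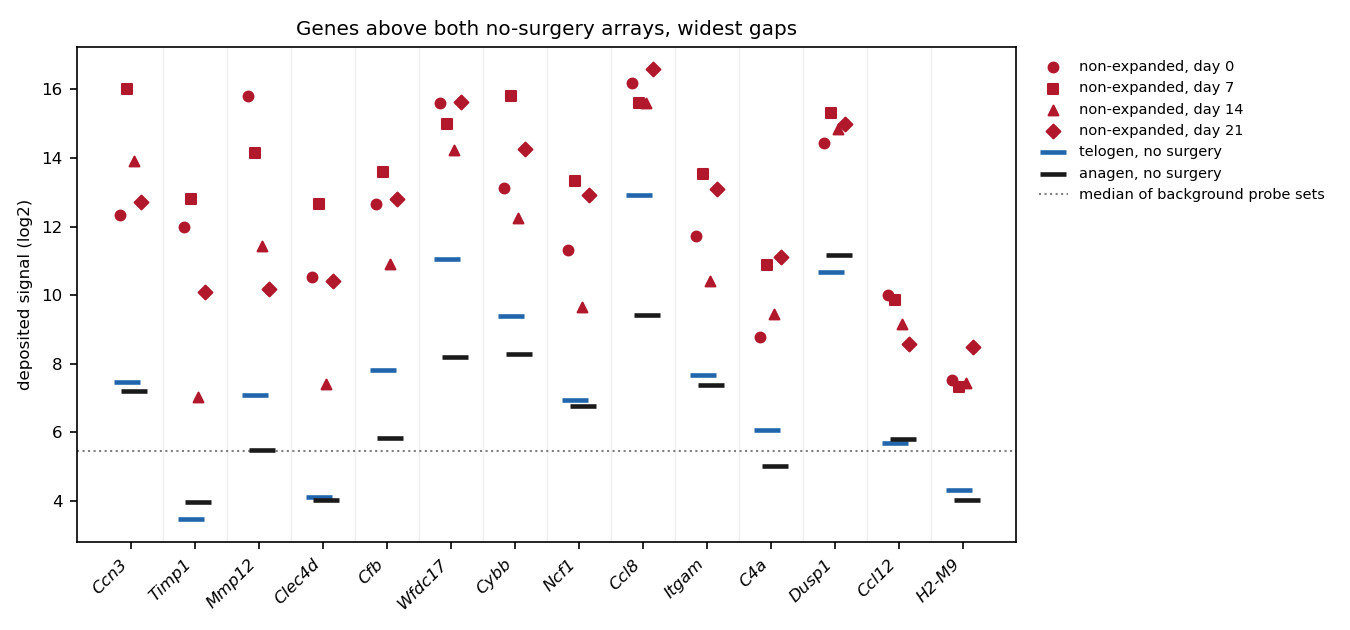
Deposited log2 signals (y axis) of the 14 named genes with the widest gap above skin without surgery. Red symbols are the 4 non-expanded arrays by day, bars are the single telogen (blue) and anagen (black) arrays, and the dotted line is the background median of 5.46. All red symbols lie above both bars, and the day 14 triangle is the lowest red symbol for Timp1 (7.02), Clec4d (7.42), Cybb (12.24) and Ncf1 (9.65).

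Complement genes followed the macrophage genes, with 12 of 17 tested members above both stages, against 11.5% of all genes. The median difference was 2.93 log2. The classical starter was represented by C1qc, at 11.01, 13.47, 10.38 and 12.73 against 8.03 in telogen and 8.09 in anagen, and by the protease C1ra, which differed by 3.07 ± 0.71. C2, the next protease of that pathway, had closely grouped values of 8.37, 8.55, 8.22 and 8.23 against 6.57 and 6.22, and a difference of 1.94 ± 0.3 (adjusted p 0.0646, range 0.00545 to 0.226). Cfb, the protease of the alternative pathway, was at 12.67, 13.6, 10.92 and 12.79 against 7.82 and 5.85. The receptor C3ar1 differed by 4.74 ± 1.07. C4a, which the list did not hold, was at 8.79, 10.87, 9.44 and 11.12 against 6.08 and 5.03, but it is a near-identical copy of C4b, and the probe set may not separate the copies. C7, a late component that forms the lytic pore, differed from anagen only: it was at 14.52 to 17.39 in implanted skin, 15.78 in telogen and 8.22 in anagen.

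Chemokines, the attractants of leukocytes, were above both stages for 17 of 30 tested members, with a median of 1.89 log2. Ccl8 was high and even, at 16.19, 15.6, 15.61 and 16.58 against 12.91 in telogen and 9.42 in anagen. Ccl12, another attractant of monocytes, was at 10.0, 9.87, 9.15 and 8.59 against 5.68 and 5.81, where both stages were close to the background median. Ccl7 ran from 11.8 on day 0 to 8.79 on day 21 against 6.53 and 6.36. Ccl9 differed by 4.4 ± 0.84. Ccl3 was at 7.31 to 9.4 against 5.09 and 3.3, both below that median. Each of these 5 genes had a gap of at least 1.73 between the nearest arrays. Of the interleukin 1 and 6 families 6 of 19 members were above both stages, against 11.5% of all genes, with a median of 1.19. Il1b, the inflammatory interleukin 1 beta, was at 10.21, 9.91, 8.62 and 9.87 against 5.9 and 6.27, and Il33, an alarm signal of barrier tissue, differed by 3.72 ± 0.94.

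The count of interferon response genes above both stages was lowered by 1 array, that of day 14. With all 4 implanted arrays 9 of 16 tested members were above both stages, against 11.5% of all genes. Without day 14 it was 15 of 16. The list mean was 8.56, 8.46, 7.09 and 8.77 on days 0 to 21, against 6.81 in telogen and 6.21 in anagen, so that day 14 lay close to telogen. Bst2, whose promoter is printed above, was nevertheless even, at 14.14, 14.09, 13.26 and 13.65 against 11.64 and 9.66. Gbp2, a GTPase induced by interferon gamma, was highest on day 21 at 11.94 and lowest on day 14 at 7.91, against 6.78 and 6.28. Zbp1, a sensor of nucleic acid in the Z form, was at 4.98 on day 14 against 4.69 in telogen and 4.44 in anagen, all below the background median of 5.46. The median difference of the list was 1.69 log2. H2-M9, a nonclassical class I molecule that no list held, was at 7.52, 7.33, 7.43 and 8.5 against 4.31 and 4.04, both below that median.

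Antigen presentation by class II molecules behaved differently. Of 12 tested members 4 were above both stages and 7 were higher than anagen only, against 11.5% and 7.84% of all genes. The median difference was 0.15 log2 from telogen and 2.51 from anagen. H2-Ab1, H2-Eb1 and H2-Aa, which encode chains of the class II molecules themselves, all had telogen inside the range of the implanted arrays, as in H2-Eb1 with 10.92 to 12.67 against 11.56. H2-DMa, which helps load peptides, was above both stages at 7.58 to 8.91 against 6.62 and 4.79. T and NK cell genes were above both stages for 3 of 12 members, against 11.5% of all genes, with a median of 0.41. Thy1, which fibroblasts also express, differed by 2.52 ± 0.65. Of mast cell genes 4 of 10 were above both stages. The tryptase Tpsb2 differed by 1.73 ± 0.41 with a gap of 0.56, while the protease Cpa3, at 12.14 to 13.95, had telogen inside its range at 12.81.

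Matrix genes formed the second large group above both stages. Matricellular proteins, which modulate contact between cells and matrix, were above both for 12 of 22 tested members with a median of 1.82 log2. Enzymes that modify collagen were above both for 11 of 20 with a median of 1.59. Matrix proteases and their inhibitors were above both for 14 of 26 with a median of 1.6. Fibrillar matrix genes were above both for 11 of 23 with a median of 1.08. None of the members of these 4 lists was below both stages. Of all genes 11.5% were above both and 7.21% below both.

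Ccn3, a matricellular protein at chr15:54745910-54753762 (GRCm38.p6), had the widest gap of the named genes above both stages. Its signals were 12.34, 16.01, 13.9 and 12.72 on days 0 to 21, 7.48 in telogen and 7.2 in anagen. The nearest arrays were 4.85 apart, the difference was 6.4 ± 0.95 log2, and the adjusted p was 0.0646, with a range of 0.00871 to 0.226 over the alternatives. In expanded skin, which shares the no-surgery arrays as its reference, Ccn3 was at 16.62, 15.93, 16.66 and 14.41 on the same days. Cthrc1, a secreted protein of repairing fibroblasts, was at 11.81, 12.53, 10.66 and 11.15 against 8.85 and 7.52. Thbs2, a thrombospondin, was at 14.34, 15.65, 14.1 and 13 against 11.87 and 10.04. Thbs1, its relative, was 2.95 ± 0.76 above the mean of both stages, with a gap of 0.58. Tnc, which encodes tenascin-C, did not follow them: it was at 10.85 and 11.46 on days 0 and 7 and at 6.23 and 6.26 on days 14 and 21, against 6.8 in telogen and 10.83 in anagen.

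Lox, the enzyme that starts the cross-linking of collagen and elastin, was even across days at 15.86, 16.21, 15.47 and 14.86 against 13.23 in telogen and 12.26 in anagen. Its difference was 2.86 ± 0.43 (adjusted p 0.0646, range 0.00321 to 0.226). The related Loxl1 was at 10.29, 13.09, 10.98 and 11.43 against 7.85 and 7.6, and Loxl3 at 8.83, 9.9, 7.46 and 8.34 against 5.15 and 6.15. All 3 oxidases were thus above both stages in every implanted array. P4ha1, a subunit of the enzyme that hydroxylates proline in collagen, differed by 1.76 ± 0.42. The collagen genes themselves differed less. Col1a1 was at 17.12 to 19.06 with telogen at 18.03 inside that range, a difference of 0.78 ± 0.61, and Col3a1 differed by 0.51 ± 0.44. Both run above 16, the limit of a 16-bit scanner, so the deposited scale may be stretched there. Fn1, fibronectin, was at 15.21, 18.41, 15.99 and 17.29 against 13.29 and 12.75, and Bgn, the proteoglycan biglycan, at 15.07 to 16.95 against 13.82 and 13.96.

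Among the proteases and inhibitors Timp1, an inhibitor of metalloproteinases, had the largest difference of the named genes above both stages, 6.76 ± 1.54 log2 (adjusted p 0.096). Its values were 11.99, 12.81, 7.02 and 10.08 against 3.46 and 3.97, so that the level in skin without surgery was under the background median and the size of the difference rests on signals near background. Mmp3, stromelysin, was at 14.22, 15.73, 13.53 and 14.16 against 12.63 and 8.48. Adamts5, which cuts proteoglycans, differed by 2.65 ± 0.57. Of the TGF-beta and activin list, 6 of 26 members were above both stages and 1 was below, against 11.5% and 7.21% of all genes. The median was 0.22. Tgfb1, the ligand best known for driving fibrosis, was at 13.65, 13.63, 12.59 and 13.12 against 11.39 and 10.44, and its receptor Tgfbr2 differed by 2.31 ± 0.57. Fstl1, a secreted antagonist of the family, differed by 2.65 ± 0.58. Cilp, a cartilage matrix protein that was on the list of bone and cartilage genes, was at 11.84, 12.03, 11.28 and 10.22 against 8.61 and 8.44. Acta2, the smooth muscle actin that marks myofibroblasts, was at 13.48 to 14.48 with anagen inside that range at 14.21, and differed by 0.49 ± 0.4.

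Blood and lymphatic vessel genes were above both stages for 11 of 23 tested members, against 11.5% of all genes, with a median of 0.9 log2. Pecam1, the adhesion protein CD31 of endothelium, was at 10.85, 12.05, 11.27 and 12.05 against 10.41 and 9.17. Pdpn, found on lymphatic vessels and on activated fibroblasts, was at 12.07, 13.3, 11.38 and 12.31 against 10.01 and 8.55. Lyve1, a marker of lymphatic vessels and of some macrophages, was at 12.49, 11.96, 10.97 and 14.6 against 10.27 and 9.4. These gaps ran from 0.44 for Pecam1 to 1.37 for Pdpn.

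Immediate early genes, which respond quickly to many stimuli, were above both stages for 10 of 21 tested members, with 1 below and a median of 0.98 log2. Dusp1, a phosphatase that shuts off MAP kinases, was even at 14.45, 15.31, 14.84 and 15.0 against 10.67 in telogen and 11.17 in anagen, a difference of 3.98 ± 0.82 (adjusted p 0.0762). Fosb was at 9.94, 7.76, 10.66 and 8.77 against 5.8 and 3.74, Fos at 11.55, 9.84, 13.24 and 9.62 against 7.67 and 6.86, and Atf3 at 11.75, 9.18, 12.12 and 9.59 against 6.58 and 7.27. Fosb, Fos and Atf3 thus had days 0 and 14 above days 7 and 21, an order that Dusp1 did not have. Klf2, a factor induced by flow in vessels, was at 5.95 to 7.11 against 4.86 and 4.74, both below the background median of 5.46. Of the targets of the tension-sensitive coactivators YAP and TAZ, 4 of 22 were above both stages and 1 was below (3 below without day 7), with a median of 0.17. Of all genes 11.5% were above both and 7.21% below both. Ccn2 was at 10.34 to 11.41 against 9.24 and 7.85, and Ccn1 at 14.04 to 16.4 against 13.58 and 9.47.

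**Figure D3:**
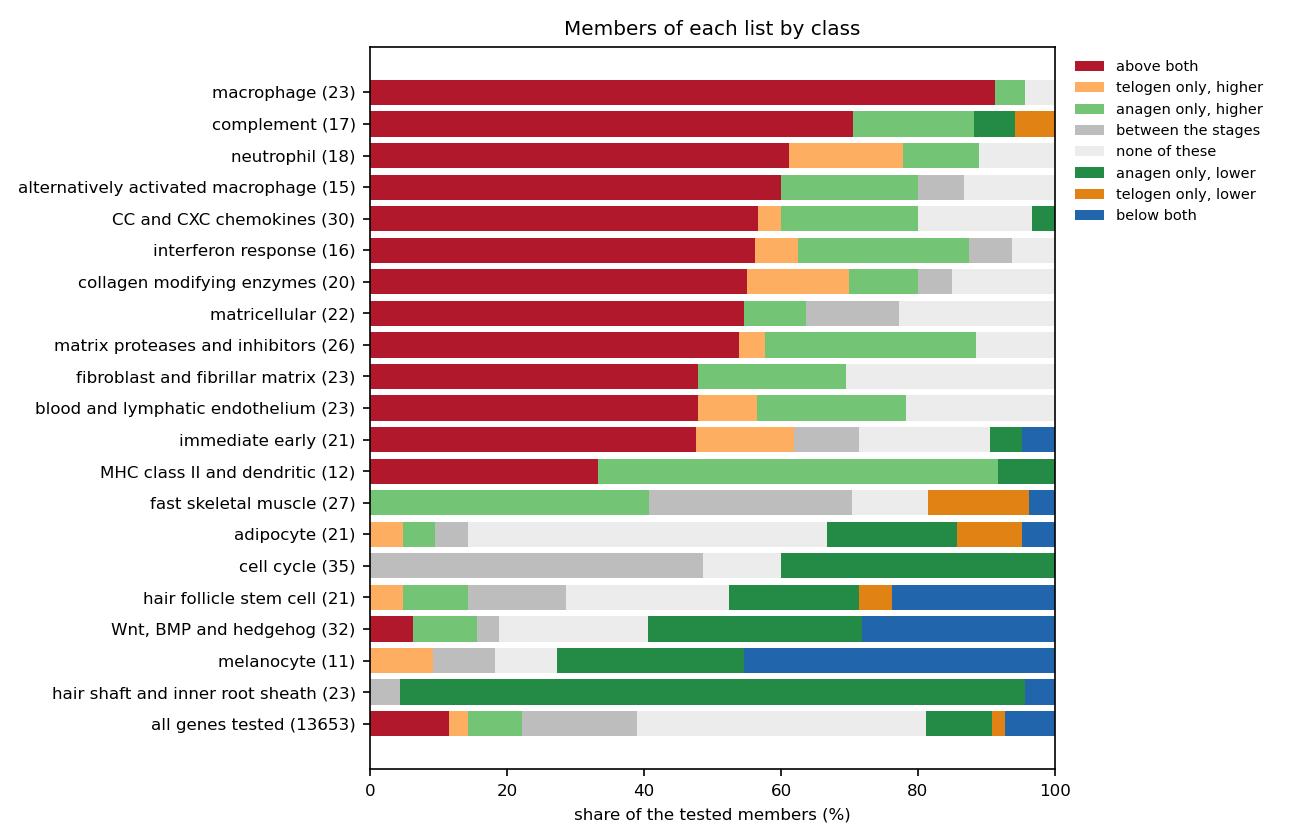
Bars give, for each list, the share of its tested members (x axis, percent) in each class, with the number tested in brackets and all 13653 genes in the lowest bar. Macrophage genes have 21 of 23 members above both stages, hair shaft genes 21 of 23 below anagen only, and melanocyte genes 5 of 11 below both, against 11.5%, 9.6% and 7.21% of all genes.

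Genes below both stages were led by the hair follicle. Hedgehog signalling was followed from its ligand to its targets. Shh, the ligand made by the growing follicle and chosen here after its values were seen, was at 7.72, 6.47, 6.8 and 6.81 against 7.23 in telogen and 9.69 in anagen, so it lay below anagen only. The transducer Smo, likewise chosen after its values were seen, was at 7.08 to 7.65 against 7.42 and 8.47. The pathway's targets stood lower than in both stages. Ptch1, the receptor that is itself induced by the pathway, was at 7.91, 7.59, 9.37 and 7.82 against 10.47 and 12.4. Gli1, the transcription factor that reports pathway activity (chr10:127329882-127341579, GRCm38.p6), was at 6.27, 4.95, 6.34 and 5.52 against 8.01 and 8.63. Hhip, a decoy receptor induced by the pathway, was at 5.19, 5.51, 6.11 and 5.35 against 7.07 and 9.42.

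No implanted array reached either stage in any of these 3 targets. The difference was -3.26 ± 0.64 log2 for Ptch1, -2.55 ± 0.4 for Gli1 and -2.71 ± 0.58 for Hhip, with limma adjusted p of 0.0739, 0.0716 and 0.0826. All 3 fell in the fit with separate stages, and over the alternatives the adjusted p of Gli1 ran from 0.00592 to 0.226. The non-expanded values of Gli1 and Hhip lie near the background median of 5.46. In expanded skin, set against the same no-surgery arrays, the mean was 8.32 for Ptch1, 5.26 for Gli1 and 5.6 for Hhip.

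Of the whole list of Wnt, BMP and hedgehog genes 9 of 32 tested members were below both stages, against 7.21% of all genes, and 2 were above both, or 4 without day 0. The median difference was -0.77 log2, with -0.18 from telogen and -1.38 from anagen. Wif1, a secreted inhibitor of Wnt ligands, was at 5.55, 5.83, 5.81 and 5.34 against 7.3 and 10.2, close to background in every implanted array. Axin2, a direct target of Wnt signalling, was at 7.09, 7.61, 7.72 and 7.01 against 8.17 and 9.5. Sfrp2, which binds Wnt ligands and is made by dermal fibroblasts, went the other way: it was at 11.38, 16.64, 12.91 and 12.66 against 9.2 and 7.31. The other members below both were Notum, which inactivates Wnt ligands, and Id1, Id2 and Id3, targets of BMP signalling.

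Lgr4, a receptor for R-spondins that raises Wnt signalling, was not on the list but was among the named genes with the widest gap below both stages. It was at 10.74, 11.21, 11.26 and 11.27 against 12.91 in telogen and 13.76 in anagen, with a difference of -2.21 ± 0.37 (adjusted p 0.0731, range 0.00405 to 0.226). Its relatives did not share this. Lgr6, the receptor in the series title and a marker of epidermal stem cells, was at 6.09, 6.44, 7.37 and 6.06 against 6.82 and 6.24, a difference of -0.04 ± 0.44. Lgr5, the marker of follicle stem cells, was at 8.68, 8.47, 9.44 and 7.84 against 7.91 and 8.96, a difference of 0.17 ± 0.54. Both no-surgery values of Lgr6 and of Lgr5 lay inside the range of the implanted arrays.

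Of 21 follicle stem cell genes 5 were below both stages and 0 above (2 above without day 21), with a median of -0.38 log2. Of all genes 7.21% were below both. The 5 members below both were Gli1, Axin2, Tbx1, Sox9 and Foxc1. Tbx1 was at 8.98, 8.66, 10.49 and 9.41 against 10.9 and 12.94, and Sox9, a factor of the outer root sheath and bulge, at 11.08, 11.1, 11.69 and 10.55 against 12.19 and 13.99. Lhx2, another bulge factor, was below both stages except on day 14, when it reached 11.06 against 10.95 in telogen. Day 14 was the highest implanted array in Tbx1, Sox9 and Lhx2 alike.

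Melanocyte genes were below both stages for 5 of 11 tested members and below anagen only for 3 more, against 7.21% and 9.6% of all genes. The median difference was -0.48 log2 from telogen and -6.16 from anagen. Slc24a5, an ion exchanger of the melanosome, was at 4.18, 4.46, 4.47 and 4.64 against 5.7 in telogen and 10.74 in anagen, with all implanted values below the background median of 5.46. Tyrp1, an enzyme of melanin synthesis, was at 7.25, 5.98, 7.25 and 5.81 against 7.75 and 14.35, and Pmel, the fibril protein of the melanosome, at 5.88, 5.0, 6.22 and 5.61 against 6.45 and 12.31. Telogen was 0.5 above the highest implanted array for Tyrp1 and 0.23 for Pmel. The list mean was 6.82 to 7.27 in implanted skin and 7.13 in telogen, so most of the difference from the mean of both stages lay in anagen, at 11.93. Dct, an enzyme of the eumelanin path, was below anagen only, as day 14 reached 8.96 against 8.94 in telogen.

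**Figure D4:**
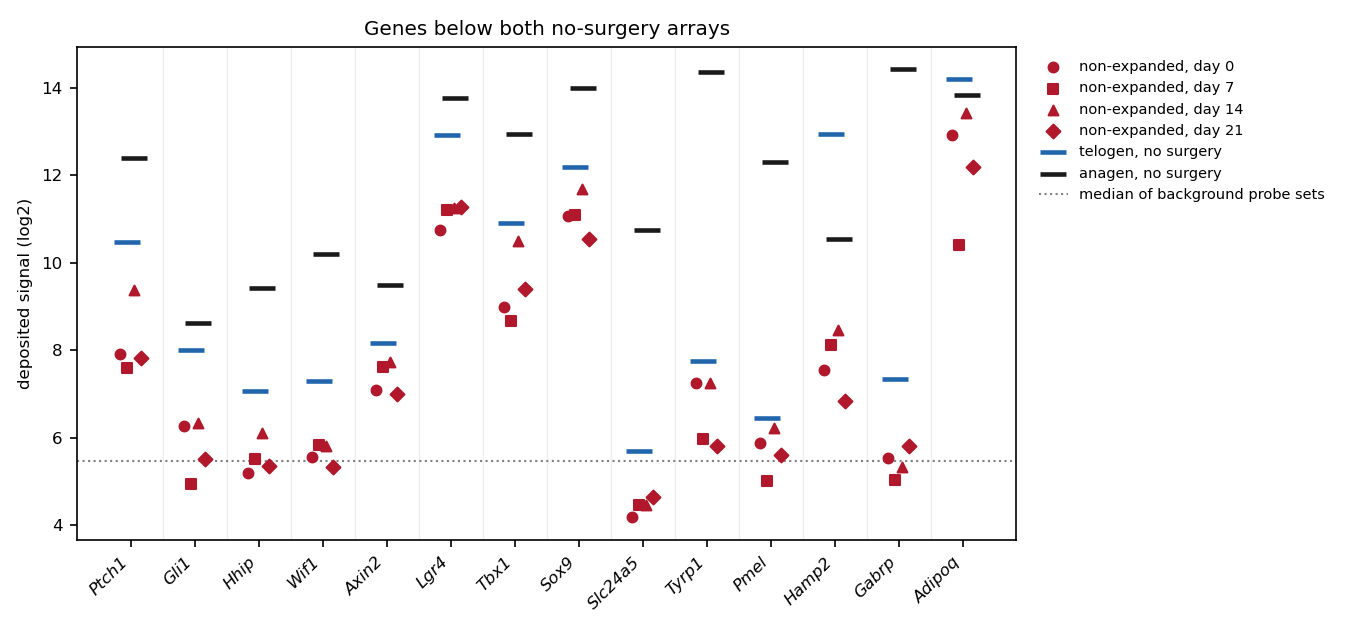
Deposited log2 signals (y axis) of hedgehog and Wnt genes, follicle and pigment cell genes and 3 others that lay below skin without surgery, with symbols as for the genes above both stages. All red symbols lie under both bars; Gli1 (4.95 to 6.34) and Hhip (5.19 to 6.11) lie close to the dotted background line at 5.46, and Lgr4 (10.74 to 11.27) well above it.

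The named genes with the widest gap below both stages included keratin-associated proteins of the hair shaft. Krtap19-1 was at 7.03, 6.78, 9.79 and 7.01 against 14.05 in telogen and 19.67 in anagen. Krtap19-5 was at 5.98, 5.15, 6.88 and 4.89 against 9.43 and 17.56, and Krtap5-1 at 8.64 to 9.32 against 10.71 and 18.08. These genes belong to families of close copies, and probe sets may not separate the members. Hamp2, a hepcidin gene that is a close copy of Hamp, was higher in telogen than in anagen: it was at 7.55, 8.13, 8.47 and 6.83 against 12.95 and 10.54, a difference of -4.0 ± 0.73. Gabrp, a subunit of GABA receptors found in epithelia, was at 5.03 to 5.81 against 7.34 and 14.42. Tenm2, an adhesion protein of the teneurin family, differed by -2.59 ± 0.51, and Egfl6, a secreted protein of follicle and mesenchyme, by -1.93 ± 0.54 with nearly equal stages at 10.62 and 10.7. Fam83a, Golga7b, Dnajc6 and Taf7 complete the named set, with differences between -3.0 ± 0.72 for Golga7b and -1.75 ± 0.32 for Fam83a. Implanted skin was below the background median of 5.46 on all 4 arrays for Golga7b and Fam83a.

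Fat genes were more often lower than higher, but rarely outside both stages. Of the tested members 15 were lower than the mean of both stages and 6 higher. The list mean was 9.23, 9.28, 10.16 and 9.67 on days 0, 7, 14 and 21, against 10.09 in telogen and 10.0 in anagen. Day 14 alone was thus not below both stages. Of 21 tested adipocyte genes 1 was below both stages and 0 above, against 7.21% and 11.5% of all genes, with a median of -0.38 log2. That gene was Adipoq, the adipokine adiponectin, at 12.93, 10.41, 13.42 and 12.18 against 14.19 and 13.84, a difference of -1.77 ± 0.67 (adjusted p 0.249). Without day 14 it was 4 of the 21. Fabp4, a fatty acid carrier of fat cells, was at 15.48 to 16.8 against 16.71 and 16.94, and Lipe, hormone-sensitive lipase, lay below anagen only.

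The second question was which genes differed from a single stage. Genes that differed from telogen only, with anagen inside the range of the implanted arrays, included several with 1 high day. The 8 higher named genes were Vcan, Ednrb, Cygb, Cyb5r3, Stfa2l1, Stfa2, Irf7 and Tnfaip2, with mean differences from telogen between 3.3 and 4.28 log2. Vcan, the proteoglycan versican of the dermal papilla and of wound matrix, was at 9.73, 13.21, 8.9 and 11.84 against 6.64 in telogen and 10.48 in anagen. Cygb, a globin of fibroblasts, was at 8.59, 12.79, 9.33 and 11.75 against 6.79 and 8.78. Irf7, a regulator of interferon genes, was at 7.36, 8.85, 5.39 and 8.35 against 4.09 and 6.09. In these 3 genes days 7 and 21 stood above days 0 and 14. Stfa2 and Stfa2l1, stefins of myeloid cells that are close copies of each other, were highest on day 0 at 13.29 and 11.48 and lay between 7.25 and 8.04 on the later days. None of the 8 was called against telogen in limma, where the lowest adjusted p of any gene was 0.11.

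The 8 named genes that were lower than telogen only were Mup2, Mup9, Mup6 and Mup22, Mstn, Cdo1, Abca8a and Penk, with mean differences between -3.6 and -2.62. The Mup genes encode major urinary proteins and are near-identical copies, so their 4 values may be 1 signal. Mup2 was at 15.83, 12.83, 17.73 and 16.3 against 19.28 in telogen and 15.77 in anagen. Mstn, the muscle growth inhibitor myostatin, was at 8.58, 10.53, 12.56 and 12.0 against 13.89 and 8.98. Penk, the precursor of enkephalins, was at 10.65 to 14.48 against 14.69 and 11.06. In Mup2, Mstn and Penk day 14 was the implanted array nearest to telogen.

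Genes below anagen only were dominated by the hair shaft. Of 23 tested genes that build the shaft or its inner sheath, 21 were below anagen only and 1 was below both. Of all genes 9.6% were below anagen only and 7.21% below both. The median difference was -0.8 log2 from telogen and -11.15 from anagen. The list mean was 4.76, 4.61, 7.07 and 4.73 on days 0 to 21, against 6.11 in telogen and 15.82 in anagen. Day 14 alone lay above telogen. Without day 14, 17 of the 23 were below both stages, so their assignment to anagen rests on that array. Krt71, a keratin of the inner root sheath, was at 5.63, 4.6, 11.89 and 5.02 against 7.82 and 18.17. Krtap22-2 was at 4.24, 3.86, 16.49 and 3.92 against 15.66 and 19.88. Msx2, a factor of the hair matrix, was at 4.15 to 4.51 in implanted skin and at 4.28 in telogen, against 11.67 in anagen. Its implanted and telogen values all lie below the background median of 5.46. Krt32, a cuticle keratin, was the member below both.

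The other named genes lower than anagen only, Krtap1-5, Krtap7-1, Tchhl1, Krtap11-1, Krtap4-16, Krtap19-2 and Calhm4, differed from anagen by -13.46 to -12.02 log2. Their implanted means of 4.21 to 6.25 lie near or below the background median of 5.46 and their anagen values of 16.23 to 19.71 above the scanner limit of 16, so the exact sizes carry little weight. In Krtap1-5, Krtap7-1, Tchhl1, Krtap11-1 and Krtap4-16 day 14 was again the highest implanted array, with 9.92, 11.64, 8.73, 8.2 and 8.94, each above telogen. Some genes outside the hair list had the same form. The gap junction genes Gjb2 and Gjb6 differed from anagen by -6.64 and -6.44, and S100a7a, a calcium-binding protein of epidermis, by -9.29, with telogen at 5.29 inside the range of 4.81 to 5.69. Of the wound epidermis list, which holds these 3, 2 of 19 members were above both stages, near the 11.5% of all genes, and 5 were without day 7. Lcn2, an iron-binding protein of inflamed epithelium, was above both but ranged from 7.58 to 14.48 against 7.19 and 6.85. Krt16, a keratin of wounded epidermis, was at 12.96 on day 0 and at 5.99 to 6.78 afterwards, against 5.94 in telogen and 8.67 in anagen.

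Cell cycle genes lay between the stages. Of 35 tested members 17 had all 4 implanted arrays between telogen and anagen, 14 were below anagen only and 0 were outside both, against 16.8% of all genes between the stages and 9.6% below anagen only. Without day 0 there were 3 below both. The median was 0.8 log2 above telogen and 2.24 below anagen (-2.24). The list mean was 8.37 on day 0, 7.79 on day 7, 7.76 on day 14 and 7.02 on day 21, against 6.95 and 9.92. Mki67, the proliferation antigen, was at 12.33, 11.87, 11.83 and 10.82 against 10.71 in telogen and 15.16 in anagen. Mcm2, of the replicative helicase, and Rrm2, a subunit of ribonucleotide reductase, had the same placement, with differences from anagen of -2.96 and -3.44.

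**Figure D5:**
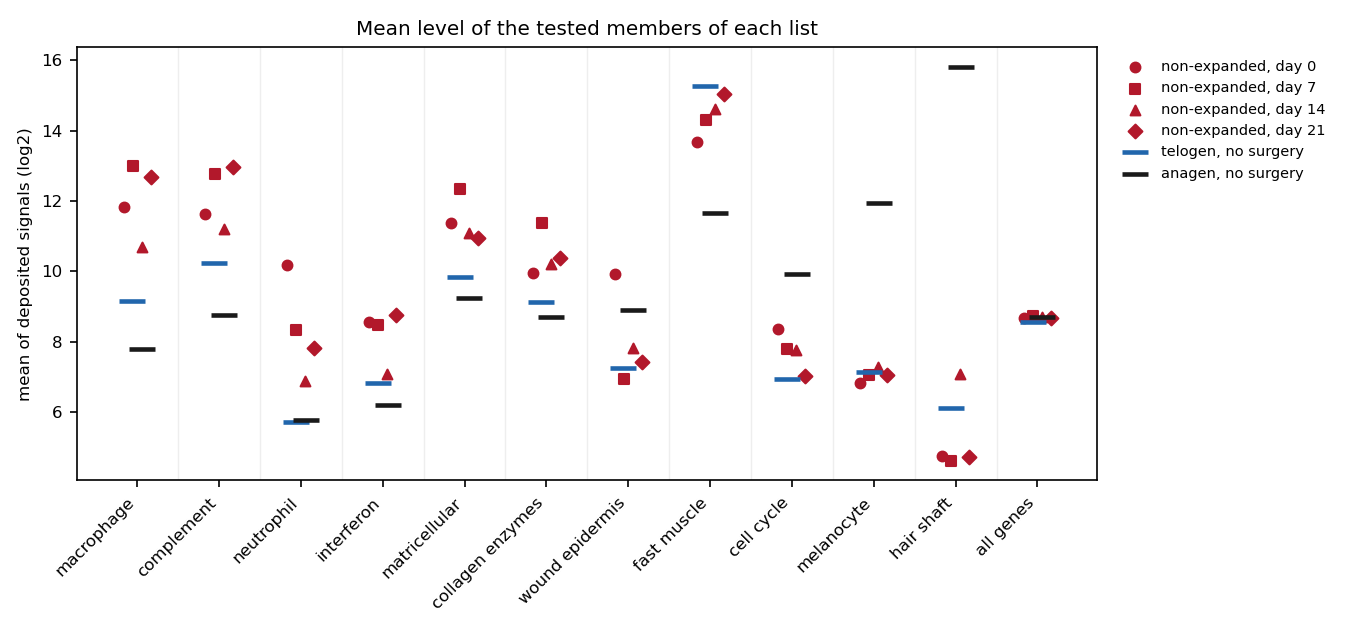
Mean log2 signal (y axis) of the tested members of 11 lists and of all genes, with the 4 non-expanded arrays as red symbols by day and the single telogen and anagen arrays as bars. Macrophage means (10.69 to 12.99) lie above both bars, hair shaft means lie near telogen with day 14 highest (7.07), cell cycle means (7.02 to 8.37) lie between the bars, and the mean over all genes (8.66 to 8.73) lies close to both.

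Skeletal muscle genes belonged to several classes, the most frequent of which was higher than anagen only. Of 27 tested genes of fast muscle 11 were higher than anagen only (7.84% of all genes were), 4 lower than telogen only, 8 between the stages, 1 below both and 0 above both, or 2 above both without day 0. The list mean was 13.67, 14.31, 14.63 and 15.05 on days 0 to 21, against 15.28 in telogen and 11.67 in anagen. The anagen array thus had the lowest muscle signal of the 6 arrays. Ttn, the giant elastic protein titin, was at 15.98 to 17.8 against 17.24 and 12.47, Mylpf, a myosin light chain, at 17.88 to 18.89 against 18.07 and 14.19, and Myh1, a fast myosin, at 16.55 to 17.73 against 16.76 and 13.37. Tcap, Mb, Myoz2 and Lmod2, all of the contractile machinery or of oxygen storage in muscle, were among the 8 named genes highest over anagen, with differences of 5.32 to 6.33. Myh4, the fastest myosin, was the member below both stages, at 13.6 to 16.01 against 18.27 and 16.77. With the mean of the muscle list as a covariate the limma fit of 3 arms called 0 genes in either direction. It called 0 without the covariate too, so this count cannot show what muscle content adds.

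Genes of developing and slow muscle were above both stages for 3 of 17 tested members (11.5% of all genes were), and for 6 without day 14 or 5 without day 21. Csrp3, a stretch-responsive protein of the sarcomere's Z disc, was at 15.72, 12.57, 11.63 and 13.38 against 10.65 in telogen and 6.83 in anagen, a difference of 4.59 ± 1.2. Ankrd1, also stretch-responsive, was high on 1 day only, with 16.13 on day 0 and 6.85 to 8.56 afterwards against 6.91 and 7.68.

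Among the other genes higher than anagen only were some of the dermis and epidermis. Ctsk, the collagen-cleaving cathepsin K, was at 16.29, 16.21, 15.83 and 15.45 against 16.02 in telogen and 10.04 in anagen, and Fcgbp, a mucin-like protein, differed from anagen by 5.69. Of 29 tested genes of epidermal differentiation 10 were higher than anagen only, 8 lower than anagen only and 4 above both, against 7.84%, 9.6% and 11.5% of all genes. Without day 21 there were 8 above both, and without day 0 there were 3 below both instead of 0. Krt1, a keratin of the upper epidermis, was at 18.42, 16.55, 17.44 and 15.82 against 16.04 and 11.97, and Krt10 differed from anagen by 2.99 and from telogen by 0.09. Krt77 and Hrnr were above both stages by gaps of 0.17 and 0.13. Krt14, the keratin of basal cells, was at 16.6, 15.42, 16.09 and 14.43 against 14.22 and 14.65, and lay above telogen only.

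Days of the implanted arm were not alike in the genes above both stages. Of the 237 with a gap of at least 1 log2, 111 were highest on day 7, 79 on day 21, 31 on day 0 and 16 on day 14, and 164 were lowest on day 14. Day 14 was also the array that correlated most with telogen, at 0.966. In the fit with separate stages 191 of the 237 rose, and 29 of the 33 genes below both by as much fell. These genes were picked by the same arrays, so these counts describe them and do not test them. In 22 of the 237 both no-surgery values were below the background median.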

How the data were processed

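Whole-skin RNA was hybridised to Affymetrix arrays after WT PLUS labelling, per the labels' protocols. The deposited log2 values, 1 per probe set and array, were used as the authors gave them. Their normalization and log base are not given in the sources used here; base 2 was taken from the platform and the range of 1.87 to 19.88, and 586 probe sets exceed 16. The genome build is mm10 per the submitters' processing notes. Of 28846 probe sets 19572 had 1 gene symbol, all matched by gene ID, and 9243 had none; 55 genes had more than 1 probe set and were read from the brightest. Genes with a mean under the 30th percentile (4.86) were left out, which leaves 13653, of which 1476 had a mean below the background median of 5.46. The number of arrays limits the precision.

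Differences were tested with limma 3.58.1 in R 4.3.3 (lmFit, eBayes, Benjamini-Hochberg, threshold 0.05) on 10 arrays in 3 arms, with 7 residual degrees of freedom, and 6 with the stages as separate groups. The procedure was tested on simulated data that held no difference between telogen and anagen, so the simulation does not cover that feature of these arrays. Classes compare the range of the 4 non-expanded arrays with each no-surgery array; a difference from a single stage also needs a mean difference of at least 1 log2. Named genes were, outside both arrays, the 14 in each direction with the widest gap among those under an unadjusted p of 0.01, the 8 in each direction that differed most from 1 stage, up to 5 of each list by limma p, and a fixed set; predicted genes were not named. The members and lists were chosen with earlier results of these data known. Alternatives were other normalizations, filters, controls and left-out arrays. Promoters came from RefSeq (GRCm38.p6).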

Additional observations from a re-analysis of the deposited data

Results flagged for a closer look

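In 14 of 204 sets of 4 non-expanded values, 1 array lay far from the other 3 by Dixon's ratio; chance gives about 5% of sets. The cause was not tested for any of them. Most concern day 14 and the hair shaft. On that day the mean of the hair shaft list was 7.07 against 4.61 to 4.76 on the other days. Krt71 was at 11.89 against 4.6 to 5.63, Krtap22-2 at 16.49 against 3.86 to 4.24, Krtap7-1 at 11.64 against 3.44 to 4.02 and Krtap19-1 at 9.79 against 6.78 to 7.03. Krtap11-1 was at 8.2 against 3.87 to 4.31, Krtap4-16 at 8.94 against 4.65 to 4.85, Krt26 at 5.79 against 4.13 to 4.32 and Msx2 at 4.51 against 4.15 to 4.2. All 4 values of Msx2 lie below the background median of 5.46. The genes flagged on day 14 are not independent of each other.

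On day 0, Krt16 was at 12.96 against 5.99 to 6.78, Stfa2 at 13.29 against 7.36 to 8.03 and Lgr4 at 10.74 against 11.21 to 11.27. Taf7 was at 5.53 on day 7 against 6.24 to 6.36, and H2-M9 at 8.5 on day 21 against 7.33 to 7.52.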

How the results depend on the processing

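The count of genes called in the fit of 3 arms depended on how skin without surgery entered. It was 0 in each direction in the fit as reported, 477 higher and 374 lower with telogen and anagen as separate groups, and 1152 higher and 1493 lower against anagen alone. With values above 16 set to 16 it was 1 higher. Leaving out 1 array gave 0 to 1152 higher and 0 to 1493 lower: 106 and 6 without day 14, and 1152 and 1493 without telogen. Of 252 named genes 106 passed with separate stages, 148 against anagen alone and 28 without day 14. The sign of the difference turned under at least 1 alternative for 34 of the 252 named genes, 8 of them under an alternative other than a single stage as control. It turned for 0 of the 146 outside both no-surgery arrays. Their class fixes the sign against either stage and with any array left out, so that 0 is no check of these genes. Lgr6, Lgr5, Tnc, Stfa2, Mstn and Krt16 are among the 8. A gap of at least 0.5 log2 left 553 genes above and 160 below both arrays. A minimum difference of 0.5 log2 gave 1614 genes that differed from telogen only and 3699 from anagen only, and one of 2 log2 gave 98 and 868. Leaving out 1 array gave 409 (without day 7) to 667 that differed from telogen only. Median centring gave 1838 above and 748 below both, against 1567 and 985 as deposited. No paired analysis was possible because skin without surgery carries no day or number that pairs it with implanted skin.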
